A study of Mus musculus with 28 samples.

Results

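The ErbB receptors, the EGF-family ligands that bind them and the receptor inhibitor Errfi1 were followed through H3K27ac, a histone acetylation found at active promoters and enhancers, in NMuMG cells, an untransformed mouse mammary gland epithelial line of which the subclone NMuMG/E9 was used. The 10 genes were the receptors Egfr, Erbb2 and Erbb3, the ligands Areg, Ereg, Hbegf, Tgfa, Btc and Nrg1, and Errfi1. A peak was counted for a gene if its summit lay within 100 kb of a start site of that gene and no start site of another protein-coding gene was nearer. Distances below are from a gene's first start site, so that a region near a later one can lie farther than 100 kb. This rule gave 1404 of the 893719 peaks in 15 peak lists, which merged into 125 of 89050 regions. Of the 125 regions, 8 had their summit in a promoter, taken as 1000 bp before to 100 bp after a start site, and 117 were distal. A peak was present in all 15 libraries in 40 of the 125 regions, or 32.0%, against 30.2% of all regions, and 25 of the 125 were found in only 1 library. By summit, 59 regions were intergenic, 57 intronic, 5 in untranslated exon sequence and 4 in coding exons.

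ErbB receptors are tyrosine kinases of the cell surface that pair when a ligand binds. EGFR is bound by amphiregulin, epiregulin, heparin-binding EGF, TGF-α and betacellulin, ERBB3 is bound by neuregulins, and ERBB2 has no known ligand and serves as the partner of the other receptors. Signals from these receptors run through RAS, RAF and MEK to the kinase ERK, and Errfi1 encodes MIG6, an ERK-inducible protein that binds active ErbB kinases and blocks them. In the mammary gland, amphiregulin is known for its part in the growth of the ducts.

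The 15 libraries fell into 5 groups of 3. The 0h cells had received no TGF-β. The 4h and 24h cells had been given TGF-β at 2 ng/ml, which drives these cells through an epithelial to mesenchymal transition, with the solvent DMSO. The ERKi 4h and ERKi 24h cells had been given the same TGF-β and, 30 min earlier, 25 µM UO126, an inhibitor of MEK. No group had received UO126 without TGF-β, so a difference between an ERKi group and 0h holds the effect of both agents. The libraries of a group are numbered 1 to 3, and the labels do not say whether these came from separate cultures, so p-values measure only the spread between these libraries.

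The lists held 50443 to 69175 peaks per library, and 72 to 110 of the peaks belonged to the 10 genes, with the lowest number in ERKi 24h replicate 2. In a bulk sample of this kind, a lower level in every cell and loss of the mark from some of the cells cannot be told apart. Levels are given as normalised pileup, the number of DNA fragments over a peak's summit divided by a scale factor per library (0.777 to 1.37). Of 12 genes that mark mammary epithelium, 6 (Cdh1, Krt8, Krt18, Krt7, Krt19 and Krt5) had a peak within 2500 bp of a start site in all 15 libraries and 5, Epcam among them, had none in any. None of the 4 endothelial and 4 adipocyte marker genes had such a peak in any library, and of 5 leukocyte marker genes only Itgam had one, in 4 libraries.

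The sequences around the summits of regions that carried the differences described below are given first. For each gene with a region past the threshold in 1 of the first 4 comparisons, the window of 300 bases around the summit of its leading region was taken from mm9. Those of Errfi1, Tgfa, Egfr and Erbb3 are shown. A second Errfi1 region, which was also the one with the deepest fall, is shown because its window held a match to TGANTCA. Capitals mark matches on either strand to 5 motifs: TGANTCA, the site of AP-1 factors, CAGACA, bound by SMADs, CCGGAA, the core of ETS sites, GGAATG, bound by TEADs, and TGTGGT, bound by RUNX factors. CCGGAA and GGAATG share letters and can overlap.
Errfi1, 53.7 kb upstream of the start (chr4:150174189-150174488, mm9, plus strand, intergenic): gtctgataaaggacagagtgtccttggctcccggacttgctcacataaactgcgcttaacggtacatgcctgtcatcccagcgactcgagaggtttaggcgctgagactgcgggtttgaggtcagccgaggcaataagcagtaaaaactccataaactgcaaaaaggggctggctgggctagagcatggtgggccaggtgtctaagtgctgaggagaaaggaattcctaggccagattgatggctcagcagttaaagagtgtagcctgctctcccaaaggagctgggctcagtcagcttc
Errfi1, 44.9 kb upstream (chr4:150183000-150183299, mm9, plus strand, intergenic): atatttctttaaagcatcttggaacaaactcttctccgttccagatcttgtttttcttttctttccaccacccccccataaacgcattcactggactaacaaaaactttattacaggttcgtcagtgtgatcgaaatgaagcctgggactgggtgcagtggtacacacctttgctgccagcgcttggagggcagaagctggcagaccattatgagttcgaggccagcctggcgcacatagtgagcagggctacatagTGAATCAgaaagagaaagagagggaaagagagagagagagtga
Tgfa, 37.8 kb upstream (chr6:86107423-86107722, mm9, plus strand, intergenic): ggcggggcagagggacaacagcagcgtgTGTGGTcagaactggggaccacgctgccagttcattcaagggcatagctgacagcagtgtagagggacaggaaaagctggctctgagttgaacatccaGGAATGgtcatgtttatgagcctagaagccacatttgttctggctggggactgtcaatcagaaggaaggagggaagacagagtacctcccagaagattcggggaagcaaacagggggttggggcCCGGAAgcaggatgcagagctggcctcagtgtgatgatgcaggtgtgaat
Egfr, 34.9 kb upstream (chr11:16617126-16617425, mm9, plus strand, intergenic): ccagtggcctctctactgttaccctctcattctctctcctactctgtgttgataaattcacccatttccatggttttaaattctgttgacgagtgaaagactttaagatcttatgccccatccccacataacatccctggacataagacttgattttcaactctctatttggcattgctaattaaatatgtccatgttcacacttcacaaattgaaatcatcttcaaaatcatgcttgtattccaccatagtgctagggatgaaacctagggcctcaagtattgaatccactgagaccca
Erbb3, promoter, 0.564 kb upstream (chr10:128027122-128027421, mm9, plus strand, which is the strand opposite to the gene): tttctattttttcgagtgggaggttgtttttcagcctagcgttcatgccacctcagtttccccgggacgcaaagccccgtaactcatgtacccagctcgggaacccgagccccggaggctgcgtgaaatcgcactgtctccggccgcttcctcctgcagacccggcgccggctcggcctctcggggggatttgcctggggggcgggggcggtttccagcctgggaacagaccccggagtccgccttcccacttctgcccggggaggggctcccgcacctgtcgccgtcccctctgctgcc
The window 44.9 kb upstream of Errfi1 held 1 match to TGANTCA, for which it was chosen, so its presence there is not a result. The match reads TGAATCA, with neither C nor G at N, and is not an AP-1 site in the strict form. The Tgfa window held an ETS, a TEAD and a RUNX match, and the windows of Egfr, Erbb3 and the other Errfi1 region held none of the 5 motifs. Among the 40 regions with a peak in all libraries, windows with a match numbered 5 for TGANTCA, 10 for CAGACA, 3 for CCGGAA, 8 for GGAATG and 8 for TGTGGT. Over all 26920 regions with a peak in all libraries, the shares were 6.85%, 22.9%, 10.3%, 14.3% and 16.3%. Of the 7 regions of the 10 genes that were lower in ERKi 24h than at 24h, 1 held TGANTCA, against 8.24% of the 1117 such regions in all. These counts describe letters in a window, not bound sites.

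At the start sites at 0h, Erbb2 and Egfr carried the highest H3K27ac of the 10 genes and Ereg the lowest. The summits of most start-site peaks lay shortly downstream of the start, outside the promoter as defined above, so the highest peak within 2500 bp of a start site was taken here. All 10 genes had such a peak in all 15 libraries. At 0h, the normalised pileup was 234 ± 9.73 (SD, n = 3) at Erbb2, 212 ± 21.2 at Egfr, 174 ± 8.37 at Errfi1, 138 ± 4.32 at Nrg1 and 132 ± 16.7 at Hbegf. It was 126 ± 10.6 at Tgfa, 99.1 ± 20.9 at Areg, 94.9 ± 2.98 at Erbb3, 82.1 ± 9.08 at Btc and 65.8 ± 8.56 at Ereg. In this order, the libraries of Errfi1 lay below all those of Egfr and above all those of Nrg1, those of Btc lay below all those of Erbb3, and those of Ereg below all those of Btc. The ranges of Erbb2 and Egfr overlapped, as did those of neighbours from Nrg1 to Erbb3.

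**Figure D1:**
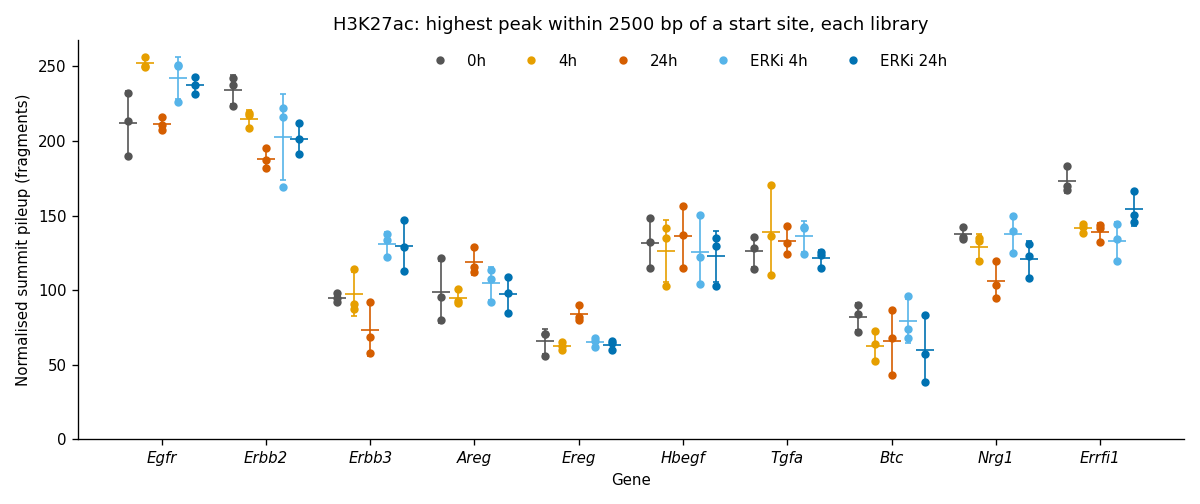
Normalised summit pileup (y axis, fragments) of the highest H3K27ac peak within 2500 bp of a start site of each of the 10 genes (x axis), with 1 point per library and bars for the mean and SD of the 3 libraries of a group. Erbb3 sits between 113 and 147 in the 3 ERKi 24h libraries and between 58.2 and 92.4 in the 3 24h libraries, while the 5 groups of Hbegf overlap one another.

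To ask where TGF-β and ERK inhibition moved H3K27ac, the 40 regions with a peak in every library were tested in a limma fit over all 26920 such regions, with Benjamini-Hochberg adjustment and a threshold of 0.05. At 4h against 0h, 4 of the 40 regions rose, at Egfr (3) and Ereg, and 1 fell, at Btc. Over all regions, 3.48% rose and 0.167% fell. The median change of the 40 regions was 0.017 on the log2 scale, against -0.0368 over all regions. With the replicate number as a block, 7 rose and 3 fell.

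At 24h against 0h, 6 of the 40 regions rose, 3 at Egfr, 2 at Ereg and 1 at Tgfa, and 3 fell, 2 at Errfi1 and 1 at Tgfa. Over all regions, 10.8% rose and 6.56% fell. The median change was 0.0897 for the 40 regions and -0.0279 for all. With the replicate block, 14 rose and 9 fell, where 18.8% of all regions rose and 17.3% fell.

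Errfi1 held more of the regions that differed with the ERK inhibitor than any other of the 10 genes at 24h, 5 of 8 without and 7 of 16 with the replicate block. At 24h, 7 of the 40 regions were lower with the inhibitor than without it, 5 of them at Errfi1 and 1 each at Tgfa and Egfr, and 1 region, the Erbb3 promoter, was higher. Over all regions, 4.15% were lower and 3.01% higher. The log2 difference was below 0 in 33 of the 40 regions, with a median of -0.33 against -0.00414 over all regions. With the replicate block, 15 regions were lower and 1 higher, where 14.1% of all regions were lower and 13.4% higher. At 4h, 1 of the 40 regions was lower with the inhibitor, at Errfi1, and none higher, where 2 had an unadjusted p under 0.05. Over all regions, 0.234% were lower and 0.00743% higher. The block gave 4 lower and 0 higher, where 3.29% of all regions were lower and 0.877% higher. Of the 4, the Errfi1 region 55.4 kb upstream (-0.77, adjusted p = 0.000889 with the block and 0.18 without it) and the Egfr regions 92.4 kb (-0.52, 0.0336 and 0.696) and 115 kb downstream (-0.60, 0.0307 and 0.696) passed only there.

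Against 0h, the calls of both ERKi groups at Errfi1 among these 40 regions were also lower. In ERKi 4h, 4 of the 40 regions were lower than at 0h, all at Errfi1, and none higher, where 6 had an unadjusted p under 0.05. Over all regions, 1.5% were lower and 3.7% higher. With the block, 7 were lower and 7 higher, where 2735 of the 26920 regions were lower and 3621 higher. In ERKi 24h, 11 were lower, 7 of them at Errfi1, 2 at Tgfa and 1 each at Btc and Egfr, and 3 were higher, 2 at Ereg and 1 at Egfr. Over all regions, 8.54% were lower and 11.3% higher. The block gave 14 lower and 8 higher, where 20.8% of all regions were lower and 21.3% higher. The comparisons share groups: 0h enters 4 of them, and the 24h libraries enter one comparison with a plus and another with a minus sign, so a high level at 24h adds to a rise over 0h and to a fall under ERKi 24h alike.

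The size of the ERK inhibitor effect was compared between the times in the same fit. In none of the 40 regions, nor in any of the 26920, did the effect at 24h differ from that at 4h after adjustment, while 5 of the 40 had an unadjusted p under 0.05, all 5 more negative at 24h. With the replicate block 4 of the 40 passed, all more negative at 24h: at Errfi1 64.8 kb (difference -1.44 ± 0.247 SE, adjusted p = 0.00108) and 44.9 kb upstream (-1.55 ± 0.279, 0.00164), and at the distal regions of Btc (-0.96, 0.0201) and Tgfa 37.8 kb upstream (-0.92, 0.0276). Without the block their adjusted p-values were 0.426, 0.426, 0.554 and 0.763. Over all regions the block called 2.04% in each direction.

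**Figure D2:**
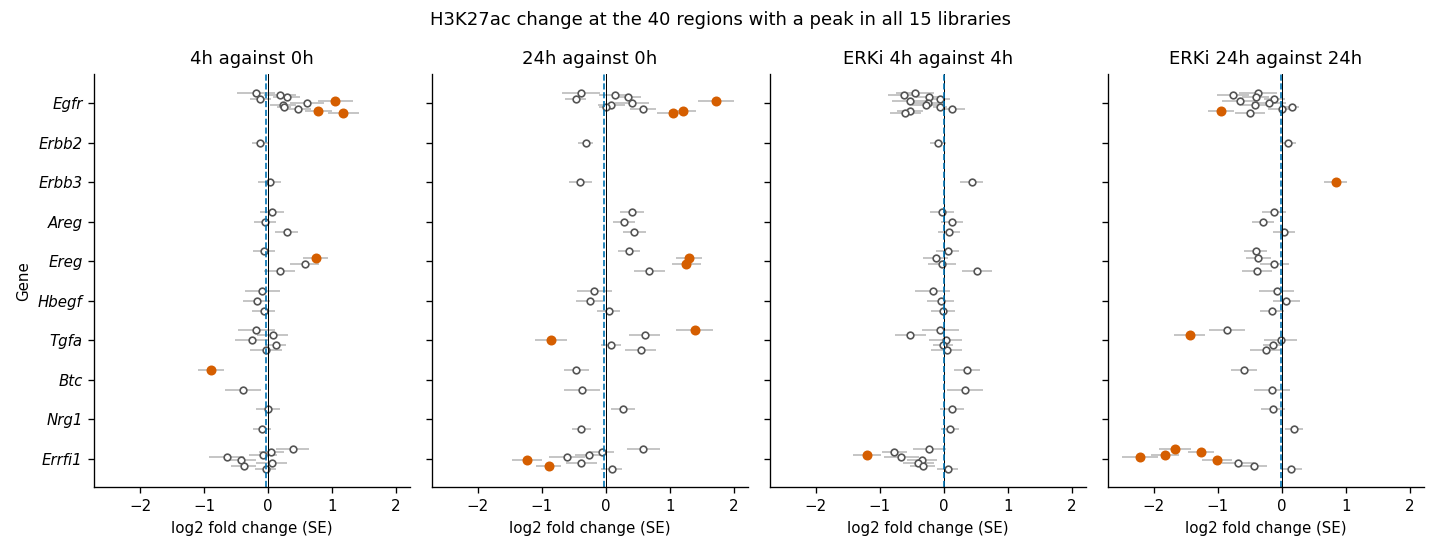
log2 fold change (x axis, bars are 1 SE) of each of the 40 regions with a peak in all 15 libraries, grouped by gene (y axis), in 4 comparisons. Filled points passed an adjusted p of 0.05 in limma, the dashed line is the median over all 26920 regions, and 5 of the 8 filled points under ERKi 24h against 24h belong to Errfi1.

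These calls concern the level at the summit and not the contrast of a peak with its surroundings. Fold enrichment, the ratio of the summit to the background that the peak caller MACS2 set for that place in that library, gave 0, 1, 0 and 2 calls among the 40 regions in the first 4 comparisons, against 5, 9, 1 and 8 with the pileup. The 1 call at 24h against 0h, the Btc region 94.4 kb downstream, was not among the 9. In ERKi 24h against 0h it gave 5 calls, all higher, against 11 lower and 3 higher with the pileup, and none of the 5 was among these 3. The local background moved with the summit. Under ERKi 24h against 24h, its log2 difference had the sign of the pileup change in 36 of the 40 regions and in 8 of the 8 called, with a median of -0.483 over the 40 regions and -0.0651 over all. At 24h against 0h the signs were the same in 35 of the 40 and in 9 of the 9 called. At the Errfi1 region 53.7 kb upstream, the mean local background was 17 fragments at 24h and 5.27 in ERKi 24h, and the fold enrichment was 5.12 and 4.4. Whether this background was drawn from the H3K27ac reads around a peak or from an input library is not given in the sources used here, and its part in the results was not tested.

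**Figure D3:**
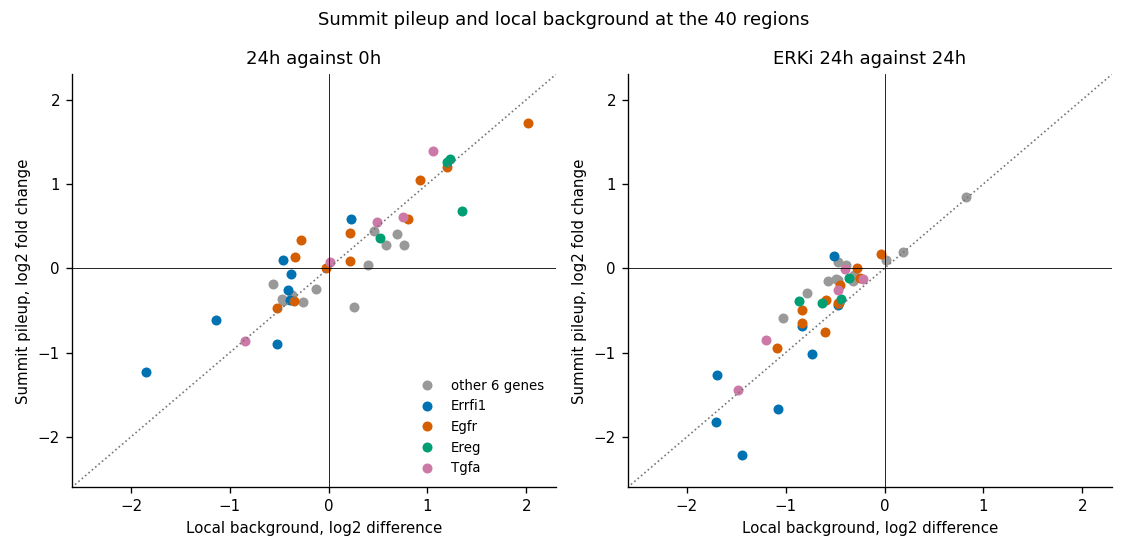
Summit pileup change (y axis, log2 fold change) against the change of the local background around the same summit (x axis, log2 difference of normalised fragments) in the 40 regions, at left for 24h against 0h and at right for ERKi 24h against 24h. The dotted line marks equal change, and most points lie near it, on the same side of 0 on both axes in 35 and 36 of the 40 regions.

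Among the receptors, Egfr, which had 33 regions, 11 of them in all libraries, gained H3K27ac with TGF-β at distal regions on either side of its first start site. On the log2 scale, the largest gain from 0h to 24h was 34.9 kb upstream, at chr11:16615454-16617806, which is intergenic. The normalised pileup there was 24.7, 29.5 and 28.5 at 0h, 66.5, 42.9 and 65.2 after 4h and 109, 61.6 and 110 after 24h. It was 48.5, 30.9 and 41.6 in ERKi 4h and 59.5, 43.8 and 73.6 in ERKi 24h. All libraries of the other 4 groups lay above those of 0h, and replicate 2 was the lowest of its group at 4h and 24h. The rise at 24h was 3.29-fold (log2 1.72 ± 0.279 SE, adjusted p = 0.000316), and the rise at 4h was 1.05 ± 0.279 (0.0418). ERKi 24h remained 1.07 ± 0.279 above 0h (0.011), and was lower than 24h only with the replicate block (-0.65, 0.00766 against 0.19 without it). ERKi 4h was above 0h only with the block as well (0.53, 0.0337 against 0.354).

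Inside the gene, 92.4 kb downstream of the first start in an intron (chr11:16743479-16745577), the pileup was 61.1, 52 and 66.9 at 0h, 101, 87 and 124 after 4h and 139, 123 and 150 after 24h. With the inhibitor it was 87.4, 51.9 and 81.2 after 4h and 69, 76 and 68.2 after 24h. All 24h libraries lay above all 0h and all inhibitor libraries and overlapped those of 4h only, and the ERKi 24h libraries came close to those of 0h. The region rose by 1.199 ± 0.207 on the log2 scale at 24h (adjusted p = 0.000513) and by 0.79 ± 0.207 at 4h (0.0387), and ERKi 24h was lower than 24h (-0.95 ± 0.207, 0.00951). Of the 11 Egfr regions, 1 was lower in ERKi 24h than at 24h without the replicate block and 4 with it. A further intronic region, 115 kb downstream (chr11:16765170-16767658), held 43.2 ± 6.78 (SD, n = 3) at 0h, 99.3 ± 25.3 after 4h and 89.7 ± 20.7 after 24h, rises of 1.18 ± 0.236 (0.00706) and 1.04 ± 0.236 (0.00436). With the inhibitor it held 64.5 ± 9.43 at 4h and 62.8 ± 6.92 at 24h, and the difference of ERKi 24h from 24h passed only with the block (-0.49, 0.0233 against 0.25), as did those from 0h of ERKi 4h (0.58, 0.0092) and ERKi 24h (0.55, 0.00748).

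An Egfr region 49.4 kb upstream went the other way. It held 139 ± 18.2 at 0h, 101 ± 15.3 at 24h and 92.7 ± 13.1 in ERKi 24h, and ERKi 24h was lower than 0h (-0.59 ± 0.165, adjusted p = 0.0168), while the difference of 24h from 0h passed only with the replicate block (-0.47, 0.0576 without and 0.00108 with it). The Egfr start itself was the highest of the 40 regions, at 231 fragments on average over the 15 libraries, with group means between 212 and 252, and passed the threshold in none of the comparisons. Several of these calls rested on single libraries. At 4h against 0h, that 115 kb downstream was lost without 4h replicate 1 (0.0545) or 4h replicate 3 (0.0539). That 92.4 kb downstream was lost without any of 6 libraries (0h replicates 1 and 2, 4h replicates 1 and 3, 24h replicate 1, ERKi 24h replicate 1), with adjusted p up to 0.211. That 34.9 kb upstream was lost without any of 7 (all 3 of 0h, 4h replicates 1 and 3, replicate 1 of ERKi 4h and of ERKi 24h), with adjusted p up to 0.198. Against 0h, the ERKi 24h call 34.9 kb upstream was lost without ERKi 24h replicate 3 (0.0595), and that 49.4 kb upstream without 0h replicate 3 (0.0866), ERKi 24h replicate 1 (0.0672) or ERKi 24h replicate 2 (0.0628).

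**Figure D4:**
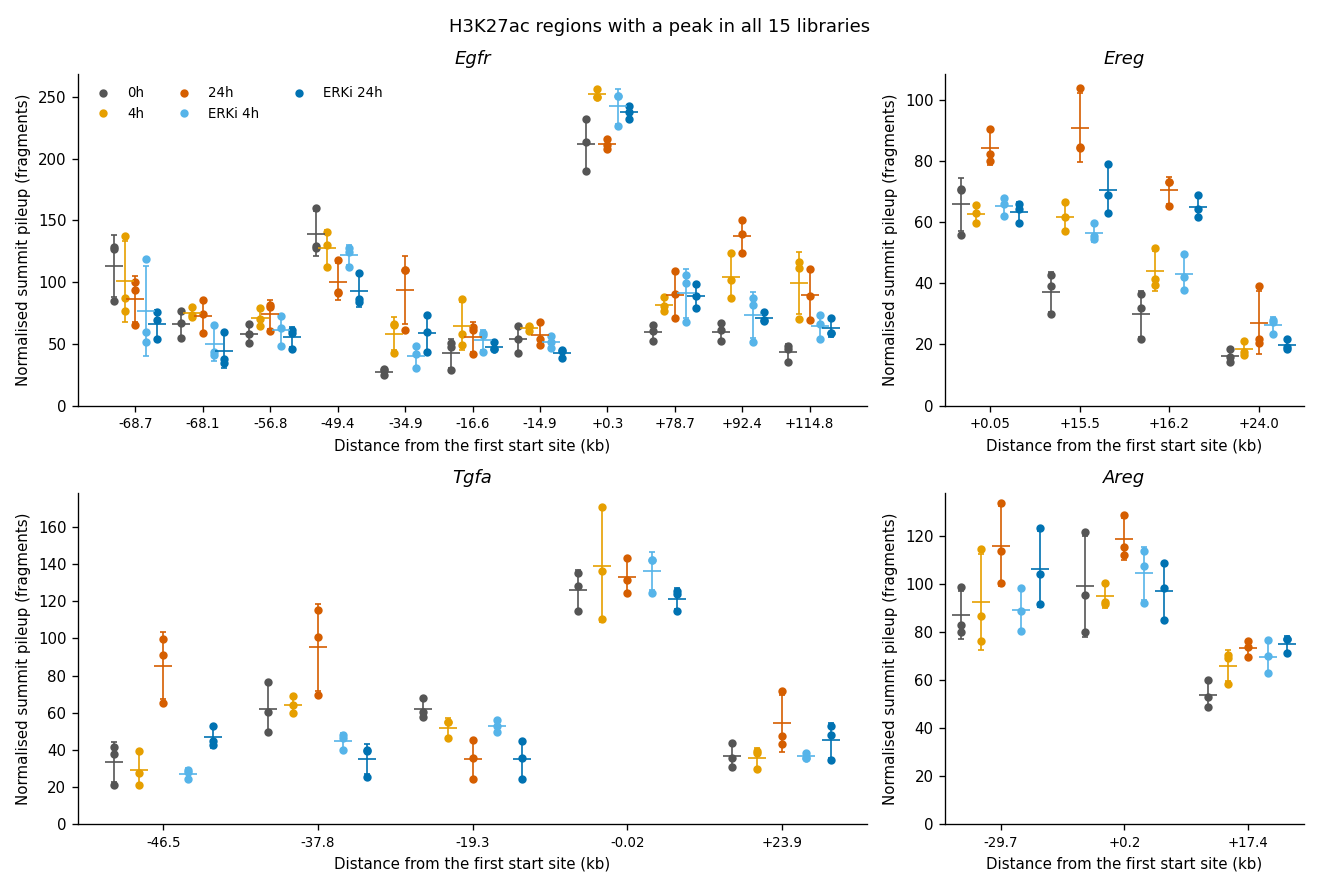
Normalised summit pileup (y axis, fragments) of the regions of Egfr, Ereg, Tgfa and Areg with a peak in all 15 libraries, ordered by distance from the gene's first start site (x axis, kb), with 1 point per library and bars for the mean and SD of a group. The 24h libraries are above all 0h libraries at the Egfr regions 34.9 kb upstream and 92.4 kb downstream, at both Ereg regions near 16 kb and at the Tgfa region 46.5 kb upstream, and ERKi 24h is below 24h at the Tgfa region 37.8 kb upstream.

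Erbb3, the receptor of the neuregulins, had 5 regions, of which only its promoter (chr10:128026158-128027715) was in all libraries. The pileup there was 94.6, 98 and 92.1 at 0h, 91, 114 and 87.2 at 4h, and 58.2, 92.4 and 68.9 at 24h. It was 122, 133 and 138 in ERKi 4h and 113, 129 and 147 in ERKi 24h. At each time the libraries with the inhibitor lay above those without it, with no overlap. At 24h the promoter was 1.8-fold higher with the inhibitor (log2 0.84 ± 0.18, adjusted p = 0.00856, and 0.0519 without 24h replicate 1), the only rise among the 40 regions in that comparison. The differences at 4h (0.44) and of 24h from 0h (-0.40) did not pass, though the latter did with the block (0.0159), as did the higher levels over 0h in ERKi 4h (0.47, 0.00904 against 0.164 without it) and ERKi 24h (0.44, 0.00706 against 0.0955). A peak 6 kb downstream in a coding exon was called in 3 of 3 libraries at 0h and at 4h, in none at 24h and in ERKi 4h, and in 1 in ERKi 24h. Another 8.93 kb upstream was called in 3 of 3 libraries in ERKi 24h, in none at 24h and in 2 of 3 in each other group.

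Erbb2, the partner receptor, had 3 regions. Its start region (chr11:98273137-98274685) held 234 ± 9.73 at 0h, 215 ± 5.52 after 4h and 188 ± 6.83 after 24h, and all 24h libraries lay below all 0h libraries. The difference of -0.32 ± 0.123 did not pass without the replicate block (adjusted p = 0.0899) and passed with it (0.00947). A peak 6.93 kb downstream in an intron was called in all 3 ERKi 24h and all 3 4h libraries, in 2 of 3 at 0h and in ERKi 4h, and in none at 24h.

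Among the ligands, Ereg, which encodes epiregulin, rose at the 3′ part of its gene. A region 15.5 kb downstream of the start, with its summit in a coding exon (chr5:91518632-91519430), had a pileup of 29.8, 39 and 42.7 at 0h, 66.5, 57.2 and 61.5 after 4h and 84.3, 84.4 and 104 after 24h. In ERKi 4h it had 55.3, 54.4 and 59.9, and in ERKi 24h 69, 63.1 and 79.1. The groups 0h, 4h and 24h did not overlap. The rise at 24h was 2.46-fold (log2 1.298 ± 0.197, adjusted p = 0.000177). The rise at 4h was 0.75 ± 0.197 (0.0412), and was lost without any of 9 libraries, with adjusted p up to 0.225 without 0h replicate 1 (the others were 0h replicate 2, all 3 of 4h, 24h replicate 1, ERKi 4h replicates 1 and 2 and ERKi 24h replicate 1). The neighbouring region at 16.2 kb held 30.1 ± 7.53 at 0h and 70.4 ± 4.53 at 24h, a rise of 1.26 ± 0.224 (0.000678). Both regions remained above 0h in ERKi 24h, by 0.93 (0.00261) and 1.14 (0.00143), and neither passed against 24h there, with differences of -0.37 ± 0.197 and -0.11 ± 0.224. The Ereg promoter held 65.8 ± 8.56 at 0h, 84.1 ± 5.5 at 24h and 63.4 ± 3.31 in ERKi 24h, and these differences passed only with the block (0.0402 and 0.0268, against 0.184 and 0.186). The same held for the region at 16.2 kb at 4h against 0h (0.57, 0.0248 against 0.227) and for both regions in ERKi 4h against 0h (0.62, 0.00296 against 0.0822, and 0.55, 0.026 against 0.195). Other Ereg regions lacked a peak in some libraries. In a limma fit with missing peaks at the lowest pileup, those 8.43 and 27.5 kb downstream (14 and 10 libraries) rose at 24h (1.33, adjusted p = 0.00341, and 2.31, 0.00024). Both were lower in ERKi 24h than at 24h (-2.02, 0.000737, and -1.28, 0.028), while that 30 kb downstream (3 libraries) was higher (0.92, 0.0291).

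Tgfa, which encodes TGF-α, moved in both directions at distal regions while its promoter did not pass in any comparison. The region 46.5 kb upstream (chr6:86097939-86099799, intergenic) had a pileup of 21.1, 37.8 and 41.7 at 0h, 21, 27.4 and 39.5 after 4h and 65.2, 91.3 and 99.7 after 24h. In ERKi 24h it had 52.9, 42.5 and 45. All 24h libraries were above all others, the rise over 0h was 2.61-fold (1.39 ± 0.285, adjusted p = 0.00216), and ERKi 24h was lower than 24h only with the block (-0.85, 0.0823 without and 0.00192 with it). The region 37.8 kb upstream (chr6:86107021-86108682, intergenic) had 69.5, 115 and 101 at 24h and 25.7, 39.9 and 39.5 in ERKi 24h, a fall of 1.44 ± 0.245 on the log2 scale (0.00183), and against 0h ERKi 24h was also lower (-0.83, 0.0219, but 0.0534, 0.106 and 0.125 without 0h replicate 2, 0h replicate 3 and ERKi 24h replicate 1). A region 19.3 kb upstream fell between 0h (62.1 ± 5.25) and 24h (35.3 ± 10.7) (-0.86 ± 0.257, 0.0266) and held 35 ± 10.4 in ERKi 24h (-0.87, 0.0227). Its call at 24h was lost without 0h replicate 1 (0.0671), 0h replicate 3 (0.0898) or 24h replicate 1 (0.164), and that of ERKi 24h without 0h replicate 1 (0.0549), 0h replicate 3 (0.0761) or ERKi 24h replicate 1 (0.136). The region 37.8 kb upstream was above 0h at 24h only with the block (0.61, 0.00563 against 0.104), and so was that 46.5 kb upstream in ERKi 24h (0.53, 0.0326 against 0.215). At the Tgfa promoter the group means lay between 121 and 139.

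For Btc, which encodes betacellulin, a region 94.4 kb downstream of its start, in an intron of the annotated gene Gm15710 (chr5:91737129-91738142), fell with TGF-β. The pileup there was 56.8, 55.5 and 55.9 at 0h, 33.2, 25 and 33.1 after 4h and 42.6, 37.7 and 42.1 after 24h, and all 0h libraries were above all others. The fall at 4h was -0.89 ± 0.2 (adjusted p = 0.0152, and 0.0638, 0.0544 and 0.0741 without 0h replicate 1, 0h replicate 2 and 4h replicate 2), that of ERKi 24h against 0h was -1.05 ± 0.2 (0.00111), and 24h against 0h gave -0.46 (0.134, and 0.0336 with the block). Only with the block was ERKi 24h lower than 24h (-0.59, 0.00927 against 0.0842) and ERKi 4h lower than 0h (-0.53, 0.0225 against 0.152). The Btc start, its highest region, held 82.1 ± 9.08 at 0h, 65.9 ± 21.8 at 24h and 59.9 ± 22.6 in ERKi 24h and passed only in ERKi 24h against 0h with the block (-0.52, 0.012 against 0.224 without it). Other Btc regions lacked a peak in some libraries. In a limma fit with missing peaks at the lowest pileup, those 95.5 and 82.7 kb downstream (11 libraries each) rose at 24h (1.58, adjusted p = 0.00273, and 0.97, 0.0143). Both were lower in ERKi 24h than at 24h (-1.43, 0.014, and -1.01, 0.0259), while that 0.955 kb downstream (10 libraries) passed in neither comparison.

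Areg, Hbegf and Nrg1, the genes of amphiregulin, heparin-binding EGF and neuregulin, had 3, 3 and 2 regions in all libraries, none of which passed the threshold in the 6 comparisons. At the Areg start the pileup was 99.1 ± 20.9 at 0h and 119 ± 8.92 at 24h, and the group means at its 3 regions differed from 0h by -0.04 to 0.48 on the log2 scale. With the block, 2 Areg regions passed at 24h against 0h, 29.7 kb upstream (0.41, 0.00829 against 0.163 without it) and 17.4 kb downstream (0.45, 0.0152 against 0.0977), and the latter also in ERKi 24h against 0h (0.48, 0.00786 against 0.0645). The Hbegf regions, on chromosome 18, differed by -0.26 to 0.07 in all 6 comparisons, with and without the inhibitor, and none passed with the block. The highest of them, 22.8 kb downstream of the start, held 180 at 0h, 154 at 24h and 160 in ERKi 24h on average. The Nrg1 start region held 138 ± 4.32 at 0h and 106 ± 12.7 at 24h, a difference of -0.38 ± 0.142 that passed only with the block (0.00646 against 0.0753). Other regions of these genes lacked a peak in some libraries. In a limma fit with missing peaks at the lowest pileup, Hbegf 7.5 kb downstream (13 libraries) fell at 24h against 0h (-1.97, adjusted p = 0.00817). Nrg1 102 kb downstream (14 libraries) rose (1.59, 0.00116). Areg 61.2 kb downstream (8 libraries) was higher in ERKi 24h than at 24h (1.32, 0.0444) and 0h (1.1, 0.0494). Their other regions with missing peaks passed in no comparison of that fit without the block.

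The receptor inhibitor Errfi1 held 5 of the 8 regions that differed with the ERK inhibitor at 24h. It had 20 regions, 8 of them in all libraries, and 6 of these 8 lay upstream, from 64.8 to 11 kb. At the region 53.7 kb upstream (chr4:150173871-150174836) the pileup was 99, 104 and 124 at 0h, 101, 101 and 106 after 4h and 91.2, 85.6 and 95.6 after 24h. In ERKi 4h it was 33, 55.6 and 47.7, and in ERKi 24h 19.8, 29.6 and 28.7. The 4h libraries overlapped those of 0h and the 24h libraries lay just below them, all 6 libraries with the inhibitor lay below all 9 without it, and the level was lowest at 24h. ERKi 24h was 3.54-fold lower than 24h (log2 -1.82 ± 0.219, adjusted p = 0.000164), the smallest adjusted p of the 40 regions in that comparison. ERKi 4h was lower than 4h by 1.21 ± 0.219 (0.0243), a call lost without any of 5 libraries, namely any of the 4h libraries and ERKi 4h replicates 1 and 3, with adjusted p up to 0.221.

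The deepest fall was 44.9 kb upstream (chr4:150182732-150183848). The pileup was 103, 96.8 and 125 at 0h and, after TGF-β for 4h, 70, 73.9 and 62.5. It was 56.5, 92.4 and 66.8 after 24h, 32, 56.8 and 44.6 in ERKi 4h and 14.7, 21.9 and 10.9 in ERKi 24h. The ERKi 24h libraries lay far below all others, and those at 4h and 24h below those of 0h. The difference of ERKi 24h from 24h was -2.21 ± 0.277 (adjusted p = 0.000229), a 4.64-fold fall, and was the only one of the calls in that comparison that remained with fold enrichment in its place in the same direction (-0.94, 0.00975). The local background there in ERKi 24h was 2.855 ± 0.9937 fragments (SD, n = 3), the same value as at the regions 64.8, 38.8 and 11 kb upstream. In each ERKi 24h library this value matched the 1st percentile of the local background over the library's peaks. These were 3.16, 3.11 and 2.89 fragments before division by the scale factors 1.36, 0.777 and 1.29. So the background at these 4 regions lay at the low end of each list. The part of this shared value in the fold enrichment, and so in the call that remained with it, was not tested. From 24h to ERKi 24h, the regions 64.8 and 55.4 kb upstream fell from 62.1 ± 18.5 to 19 ± 1.29 (-1.67 ± 0.255, 0.000778) and from 107.75 ± 10.177 to 45.3 ± 9.23 (-1.27 ± 0.2, 0.00101). Against 0h, only the block called the region 44.9 kb upstream lower at 4h (-0.65, 0.0216 against 0.287) and at 24h (-0.61, 0.0154 against 0.155), and the region 64.8 kb upstream higher at 24h (0.58, 0.00882 against 0.135). The region 11 kb upstream was lower in ERKi 24h than at 24h only with the block (-0.69, 0.0077 against 0.108).

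The region 38.8 kb upstream fell already with TGF-β. It held 114, 166 and 132 at 0h, 51.3, 52.5 and 71.9 at 24h and 20.6, 36 and 31.8 in ERKi 24h, and these 3 groups did not overlap. The change from 0h to 24h was -1.23 ± 0.235 (adjusted p = 0.00122) and that from 24h to ERKi 24h -1.01 ± 0.235 (0.0139, and 0.0554 without 24h replicate 3 and 0.07 without ERKi 24h replicate 1). The promoter region (chr4:150228094-150228997), with its summit 0.525 kb downstream of the first start site and in the promoter of a later one, showed the same order. It held 168 ± 15.5 at 0h, 130 ± 18 at 4h, 91.7 ± 18.6 at 24h, 104 ± 20.7 in ERKi 4h and 67.3 ± 9.16 in ERKi 24h, and fell by 0.89 ± 0.196 from 0h to 24h (0.0035). ERKi 24h differed from 24h there by -0.43 (0.219, and 0.0052 with the block), and 4h from 0h by -0.38 (0.433, and 0.0204 with the block). In contrast, the neighbouring region 1.41 kb downstream held 132 ± 30.5 at 0h, 139 ± 6.26 at 24h and 154 ± 11 in ERKi 24h and passed in no comparison, and the highest peak within 2500 bp of an Errfi1 start, which is that of this region in all 24h and all inhibitor libraries, moved less than the promoter peak.

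Against 0h, ERKi 24h was lower at 7 of the 8 Errfi1 regions, by 1.07 ± 0.248 (11 kb upstream) to 2.83 ± 0.277 (44.9 kb upstream), and these 7 calls held without any 1 library. ERKi 4h was lower than 0h at 4 of the 8, by 1.29 (53.7 kb upstream, adjusted p = 0.00198), 1.31 (44.9 kb, 0.00889), 0.72 (55.4 kb, 0.043) and 0.71 (0.525 kb downstream, 0.0421). The region 38.8 kb upstream passed with the block only (-0.76, 0.000921 against 0.0713). Of the 4 calls only that 53.7 kb upstream held without any 1 library. That 44.9 kb upstream was lost without ERKi 4h replicate 1 (0.065), and those 55.4 kb upstream and at the promoter were lost without any of 9 and 7 libraries, with the largest adjusted p without ERKi 4h replicate 1 (0.224 in both). These libraries were all 3 of 0h and ERKi 4h replicates 1 and 3 for both regions, 4h replicates 1 and 2, 24h replicate 1 and ERKi 24h replicate 1 for the former, and 4h replicate 2 and ERKi 24h replicate 2 for the latter. In the limma fit with missing peaks at the lowest pileup, further Errfi1 regions went both ways in ERKi 24h against 0h. Those 72.8, 54.4, 45.7, 16.6 and 0.44 kb upstream were lower (-2.86, -2.21, -2.99, -1.78 and -3.32, adjusted p up to 0.00332). Those 6.52 kb (6 libraries) and 18.1 kb downstream (14 libraries) were higher (2.13, 0.0382, and 1.31, 0.0118). That 7.64 kb downstream (12 libraries) was higher only with the block (1.51, 0.0183 against 0.0552).

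**Figure D5:**
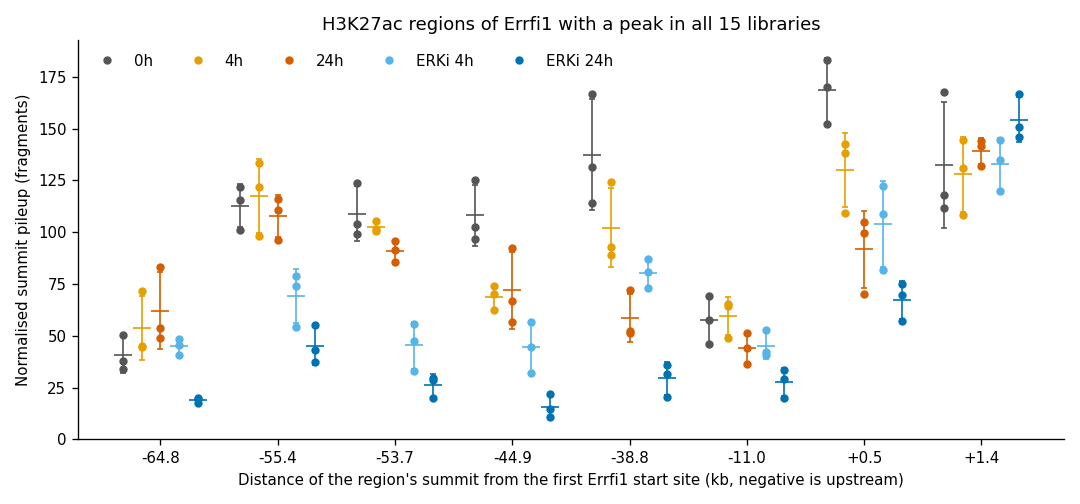
Normalised summit pileup (y axis, fragments) of the 8 Errfi1 regions with a peak in all 15 libraries, by distance from the first start site (x axis, kb, negative is upstream), with 1 point per library and bars for the mean and SD of a group. At the 5 regions from 64.8 to 38.8 kb upstream all ERKi 24h libraries are below all 24h libraries, while the region 1.4 kb downstream stays between 108 and 167.

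Over the 15 libraries, the Pearson correlation of log2 pileup between pairs of the 8 Errfi1 regions had a median of 0.772 (28 pairs), against 0.397 over 107 pairs of regions of the same gene, which include these 28, and 0.0664 over 673 pairs from different genes, where all pairs share the same libraries and groups. The Errfi1 pairs come from the same values as the calls above, so their median is a description. The promoter of Errfi1 also had the widest range of group means among the promoters of the 10 genes in all libraries (1.33 on the log2 scale). Among 4024 promoters, those whose pileup was most like it over the 15 libraries were Ezr (r = 0.952), which encodes the membrane linker ezrin, Stambpl1 (0.877), a deubiquitinase, and Rapgef3 (0.877), a cAMP-activated exchange factor.

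Regions with peaks in all 3 libraries of a group and in none of another were few. At 4h against 0h there were 0 gained and 1 lost, a peak 26 kb upstream of Tgfa found only at 0h, where 1.65% of all regions tested were gained and 0.565% lost. At 24h against 0h, 3 were gained, a pair of intronic Egfr regions 98.6 and 99.2 kb downstream and one 83.6 kb upstream of Errfi1, and 3 were lost, the Erbb3 peak 6 kb downstream, an Egfr peak 50.9 kb upstream and the Tgfa peak above, where 5.98% of all regions were gained and 2.52% lost. At 4h, the inhibitor gave 0 gained and 1 lost, the Erbb3 exon peak, where 0.316% were gained and 0.449% lost.

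At 24h, 6 regions had peaks in all 3 ERKi 24h libraries and no 24h library: 8.93 kb upstream of Erbb3, 148 and 149 kb downstream in Egfr, 6.93 kb downstream in Erbb2, 30 kb downstream of Ereg and 61.2 kb downstream of Areg. The opposite pattern was found for 3, all upstream of Errfi1, at 83.6, 72.8 and 45.7 kb. Over all regions, the shares were 1.73% and 1.41%. The Errfi1 peaks 72.8 and 45.7 kb upstream were called in 12 of 12 libraries of the other 4 groups, and the one 83.6 kb upstream in the 3 24h libraries only. A missing peak means that the caller's threshold was not passed, not that the mark was absent, and each call counts a library's own peaks, which differed in number.

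Distal peaks were counted per gene and library. Errfi1 had 18, 19 and 22 at 24h and 13, 11 and 13 in ERKi 24h, groups that did not overlap (two-sided exact permutation test, p = 0.1, the smallest that 3 against 3 allows). Erbb3 had 2, 2 and 3 at 0h, 0 in each library at 24h and 2, 2 and 3 in ERKi 24h, also without overlap in both comparisons (exact p = 0.1 in each). Erbb2 had 1, 1 and 1 at 24h and 3, 2 and 3 in ERKi 24h, and Nrg1 had 5, 5 and 6 at 4h and 7, 7 and 7 in ERKi 4h (exact p = 0.1 in each). So 1 of the 10 genes was lower at 24h than at 0h and none higher, 1 was higher and none lower in ERKi 4h against 4h, and 2 were higher and 1 lower in ERKi 24h against 24h, while none differed at 4h against 0h. Over all genes with a distal peak in these libraries, the shares that were higher and lower were 4.49% and 1.22% at 4h, 12.7% and 4.32% at 24h, 1.49% and 1.09% with the inhibitor at 4h, and 4.19% and 3.11% with the inhibitor at 24h. Over both times together, ERKi gave Errfi1 4.5 fewer distal peaks than DMSO (exact permutation within time, p = 0.02, adjusted p = 0.988). Errfi1 was the only one of the 10 genes with an unadjusted p under 0.05 here, while 2 of the 10 were under it with peaks of −log10 q of at least 10, and 0 with the replicate block, by sign flips within the 6 replicate pairs, where the smallest p is 0.0312. Of 14180 genes, 0 passed after adjustment in this permutation test and 503 had an unadjusted p under 0.05.

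Beyond the 10 genes, 34 other genes of the pathway were counted, of which 30 had a region in all libraries, 75 regions in total. At 24h against 0h, 7 of the 75 rose and 1 fell (13 and 3 with the block), where 10.8% of all regions rose and 6.56% fell (18.8% and 17.3% with the block). At 24h, 1 was higher and 3 lower with the inhibitor (8 and 14 with the block), against 3.01% and 4.15% of all regions (13.4% and 14.1% with the block). At 4h, 1 rose over 0h (11 rose and 2 fell with the block) and 1 was lower with the inhibitor (6 with the block), against 3.48% of all regions that rose and 0.234% that were lower with the inhibitor. At 24h, the shares of the 75 regions without the block lay near or below those over all regions, and the genes named next are given as descriptions. The median changes lay between -0.055 and 0.0631 on the log2 scale in these 4 comparisons. Epgn encodes epigen, an EGFR ligand whose gene is the neighbour of Ereg, and its region 9.83 kb downstream of the nearest start, from which distances are given here, rose at 24h (1.04 ± 0.199, adjusted p = 0.00125) and was lower with the inhibitor (-0.79 ± 0.199, 0.0223, and up to 0.0844 when 24h replicate 3, ERKi 24h replicate 1 or ERKi 24h replicate 2 was left out). Gab2, an adaptor that docks PI3-kinase and SHP2, rose at 24h 11.7 kb upstream (1.35 ± 0.221, 0.000343) and 10.5 kb upstream (0.68 ± 0.179, 0.0117, and 0.0545 without 24h replicate 3). The former also rose at 4h (0.84, 0.0409), a call lost without any of 9 libraries, among them all of 4h, with adjusted p up to 0.195. The single region lower with the inhibitor at 4h lay 11.7 kb downstream in Pik3ca, the catalytic subunit of PI3-kinase (-1.63 ± 0.321, 0.0407), and was lost without any of 8 libraries, again all of 4h among them, with adjusted p up to 0.331.

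Among the genes that turn receptors over or inhibit them, Lrig1, which encodes a membrane protein that promotes ErbB degradation, had 3 regions that rose at 24h, 41.9 kb (0.70, adjusted p = 0.00792, and 0.0513 without 24h replicate 3), 17.9 kb (0.69, 0.0259) and 64.2 kb downstream (0.70, 0.0466), and 1 that fell, 29.5 kb upstream (-0.64, 0.0467). Socs5, a suppressor of cytokine signalling that acts on EGFR, rose 62.4 kb downstream (0.73, 0.0387). All but the first of these calls were lost without 0h replicate 1 or 24h replicate 1, and without several other libraries, with adjusted p up to 0.235. With the inhibitor at 24h, 2 Lrig1 regions were lower, 53.5 kb downstream (-0.74, 0.033) and 89.2 kb upstream (-0.73, 0.0477), and a region of Cblb, the gene of a ubiquitin ligase of active receptors, was higher (1.08 ± 0.3, 0.0363). Leaving out any 1 of the 6 libraries compared ended the Cblb call and, except 24h replicate 2 at the former of them, the Lrig1 calls, with adjusted p up to 0.165. No region of the 4 genes of ligand sheddases and iRhoms, which release the ligands from the membrane, passed in the limma fit in any comparison without the replicate block. With it, 1 was higher at 24h than at 0h and 1 lower in ERKi 24h than at 24h.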

How the data were processed

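H3K27ac was measured by ChIP-seq (antibody ab4729) in 15 libraries, 3 each of 0h, 4h, 24h, ERKi 4h and ERKi 24h. RNA-seq and input samples of the series were not analysed here. The authors used bowtie to align reads (mm9) and MACS2 with default settings to call peaks, library by library. Whether an input library served as control is not given in the sources used here. The deposited peak lists hold, per peak, the fold enrichment (a ratio of the summit to the local background, each plus 1), the −log10 p-value and −log10 q-value, as made by the authors, and a score that was not used. Later merging, input enrichment and fold filters of the study are not in these lists.

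The pileup at each summit, in whole fragments, was solved from fold enrichment and p-value, within 0.005 for 893694 of 893719 peaks, and 25 peaks were left out. Overlapping peaks were merged into regions across libraries, and the highest pileup of each library in a region was taken. Regions were assigned by their highest summit to the nearest start site of a protein-coding gene (GENCODE vM1) within 100 kb. Pileups were divided by median-ratio scale factors. The 26920 regions with a peak in all 15 libraries were compared as log2 values with limma 3.58.1 (trended variance, Benjamini-Hochberg adjustment, threshold 0.05) in R 4.3.3, all 5 groups sharing the spread. This filter keeps no region that is absent from a group. Distal peak numbers were compared with exact permutation tests. Number and depth of reads are not in the files, so precision is judged from the spread between libraries. On simulated data, where 200 regions were changed in the 24h against 0h comparison, 16.4% of 1.5-fold, 74.6% of 2-fold and 100% of 3-fold changes were recovered, with 6 false calls of 133.

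Libraries with the same replicate number deviated together from their group means, with all 30 pairs between groups correlated over 0.1 (0.3401 to 0.7933, mean 0.584), so the fit with the replicate number as a block is given as counts for each comparison and beside the regions described. The labels do not say what the number stands for. The genes, gene lists, motifs and tests were chosen with earlier results of these data known. Described were each gene's highest region, up to 10 regions per comparison past the threshold by smallest adjusted p, regions with peaks in every library of a group but not in any of the other, and the genes of the other pathway lists past the threshold. The calls of ERKi 24h against 0h beyond the 10th, those that passed only with the block, and those of the fit with missing peaks at the lowest pileup were named after their values were seen. Window sequences were read from the mm9 genome. Alternatives were the replicate block, quantile normalisation, fold enrichment, a floor for missing peaks, stricter peaks, regions made by chaining summits, other start sites, 50 kb, and leaving out each library.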

Additional observations from a re-analysis of the deposited data

How the results depend on the processing

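The counts of regions of the 10 genes past the threshold are given here in the order 4h against 0h, 24h against 0h, ERKi 4h against 4h, ERKi 24h against 24h, ERKi 4h against 0h and ERKi 24h against 0h, where the fit as reported gave 5, 9, 1, 8, 4 and 14. With the replicate block the counts were 10, 23, 4, 16, 14 and 22, and 4 in place of 0 for the difference of the inhibitor effect between the times. With fold enrichment they were 0, 1, 0, 2, 0 and 5. The last 5 were all higher: Errfi1 1.41 kb downstream (1.18, adjusted p = 0.00125) and 55.4 kb upstream (0.596, 0.00786), Tgfa 46.5 kb upstream (0.65, 0.0206), Egfr 115 kb (0.45, 0.0382) and Hbegf 22.8 kb downstream (0.40, 0.0393). None was a pileup call in that direction, and Errfi1 55.4 kb upstream was lower with the pileup. With regions in at least 3 libraries and a missing peak at the lowest pileup the counts were 3, 25, 1, 22, 4 and 33. With peaks of −log10 q of at least 10 they were 0, 5, 0, 5, 0 and 8, with summits chained within 250 bp 1, 5, 1, 7, 2 and 12, with start sites of all annotated genes 2, 5, 0, 2, 0 and 4, and within 50 kb 4, 9, 0, 5, 2 and 10. Quantile normalisation gave 4, 10, 1, 8, 5 and 14. Fewer regions were tested under the stricter and nearer settings and more with the floor, and the causes of the other differences were not tested. Except for the block, shares over all regions are not given for these settings, so the counts show only how the calls varied. When 1 library was left out the counts ran from 1 to 5, 8 to 13, 0 to 1, 7 to 9, 1 to 6 and 11 to 16, and 0 to 0 for the difference between the times.

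Of 37 calls, up to 10 per comparison by smallest adjusted p, all 37 held with the block, 36 with quantile normalisation (the exception was Egfr 34.9 kb upstream at 4h, adjusted p = 0.0643), and 500 fits with 1 library left out kept the call while 55 did not. With fold enrichment 1 held, 28 were lost in the same direction and 8 changed sign, to these log2 values: at 24h against 0h -0.0994 for Egfr 34.9 kb upstream and 0.424 for Errfi1 38.8 kb upstream, at ERKi 24h against 24h 0.30 for Errfi1 55.4 kb upstream and 0.0893 for Egfr 92.4 kb downstream, at ERKi 4h against 0h 0.312 and 0.375 for Errfi1 44.9 and 55.4 kb upstream, and at ERKi 24h against 0h 0.0454 and 0.596 for Errfi1 38.8 and 55.4 kb upstream. The fold enrichment divides the summit by a background that moved with it, as given in the report.

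Genes without overlap in distal peak number were 0, 1, 1 and 3 in the first 4 comparisons. Counted as one way in 3 of 3 replicate numbers, a form of the replicate block, they were 1, 3, 1 and 4. They were 1, 4, 1 and 4 with −log10 q of at least 10, 1, 2, 2 and 1 with the 20000 leading peaks of each list, 0, 1, 0 and 4 within 50 kb, and 0, 1, 0 and 2 with start sites of all annotated genes. Leaving out 1 library gave 0 to 2, 1 to 3, 1 to 3 and 3 to 5. Read depth is not in the lists, so a peak missing from a list may lie under the caller's threshold for lack of reads.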
